A study of Mus musculus with 8 samples.

Results

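The genes described here are 10 members of the tumour necrosis factor (TNF) system: the ligands Tnf, Tnfsf9 and Tnfsf15, the receptors Tnfrsf1a and Tnfrsf1b, the signalling proteins Traf1, Traf2, Birc2 and Birc3, and the TNF-induced gene Tnfaip2. The 10 symbols were chosen with earlier results of these data known, so counts of calls among them are only a description. Every non-control probe whose listed transcript maps to one of these 10 names was taken. This gave 13 probes on 31 spots of the array, and all 10 genes were among the 22460 genes tested. Messenger RNA came from BV-2, mouse microglia that a retrovirus made immortal and that serve as a model of primary microglia. Cells were kept for 24 h with LPS at 1 µg/mL plus HF at 100 µg/mL (LPS+HF), with LPS alone, with HF alone, or with neither (control). LPS is lipopolysaccharide of Gram-negative bacteria, and HF is the fraction of Amauroderma rugosum, a mushroom, that hexane takes up, a mixture whose composition is not given in the sources used here. Whether the control and LPS cells received the solvent of HF is also not given. Each group had 2 single-colour arrays, described as biological duplicates of this 1 cell line, so every SE and adjusted p rests on 2 arrays a group. It is not stated that duplicates came from separate cultures, and p-values then measure only the spread between these samples, which may be technical.

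TNF is made as a membrane protein, is released by a protease and signals through 2 receptors: TNFR1 (Tnfrsf1a), which most cells carry, and TNFR2 (Tnfrsf1b), which is found mainly on immune and endothelial cells. The receptors recruit TRAF2, which brings along the ubiquitin ligases cIAP1 (Birc2) and cIAP2 (Birc3) and so opens the NF-kappaB and MAP kinase pathways, while TRAF1 binds TRAF2 and tunes the signal. NF-kappaB in turn switches on Tnf, Traf1, Birc3, Tnfaip2 and inhibitors of the pathway, and microglia are a main source of TNF in the inflamed brain. TNFSF9 (4-1BB ligand) and TNFSF15 (TL1A) are ligands of other receptors of the family and co-stimulate T cells.

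The proximal promoters of the 4 genes that were higher with LPS alone are printed because these genes moved together in that comparison. Each runs from 250 bases before the start site to 50 bases after it, 5′ to 3′ on the gene's strand, from RefSeq on GRCm38.p6. Capitals mark matches, on either strand, to a loose kappaB pattern: GGG, then any 5 bases, then CC.
Tnf: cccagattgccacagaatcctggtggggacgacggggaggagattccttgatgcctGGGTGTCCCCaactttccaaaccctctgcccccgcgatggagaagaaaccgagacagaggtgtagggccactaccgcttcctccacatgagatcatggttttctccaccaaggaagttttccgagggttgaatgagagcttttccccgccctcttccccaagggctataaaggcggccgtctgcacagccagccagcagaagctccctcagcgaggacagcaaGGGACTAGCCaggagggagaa
Tnfsf15: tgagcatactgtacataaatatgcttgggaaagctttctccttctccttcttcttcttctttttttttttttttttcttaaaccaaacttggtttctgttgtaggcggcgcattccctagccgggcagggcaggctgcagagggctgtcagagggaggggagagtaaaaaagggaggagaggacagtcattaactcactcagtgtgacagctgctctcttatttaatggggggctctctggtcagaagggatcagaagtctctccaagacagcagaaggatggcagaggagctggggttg
Traf1: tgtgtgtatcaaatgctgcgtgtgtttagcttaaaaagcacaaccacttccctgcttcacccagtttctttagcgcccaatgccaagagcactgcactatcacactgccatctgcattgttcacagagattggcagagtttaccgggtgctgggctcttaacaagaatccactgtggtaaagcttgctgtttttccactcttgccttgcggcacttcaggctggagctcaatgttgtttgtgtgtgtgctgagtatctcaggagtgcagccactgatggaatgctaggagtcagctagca
Traf2: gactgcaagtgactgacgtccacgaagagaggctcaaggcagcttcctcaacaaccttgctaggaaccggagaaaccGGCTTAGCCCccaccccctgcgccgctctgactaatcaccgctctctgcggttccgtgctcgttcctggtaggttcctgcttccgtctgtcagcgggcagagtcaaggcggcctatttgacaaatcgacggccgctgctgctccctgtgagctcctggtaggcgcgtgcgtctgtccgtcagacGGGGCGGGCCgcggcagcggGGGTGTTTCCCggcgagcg
They lie at chr17:35201958-35202257 (Tnf), chr4:63745010-63745309 (Tnfsf15), chr2:34961723-34962022 (Traf1) and chr2:25546891-25547190 (Traf2), all on the minus strand. In Tnf, GGGTGTCCCC at position -194 reads as a match on both strands, GGGACTAGCC starts at position 30, and the letters TATAAA of a TATA box start at -29. Traf2 had 4 matches, GGCTTAGCCC at -173, GGGGCGGGCC at 12, and the overlapping GGGTGTTTCC at 32 and GGTGTTTCCC at 33. Tnfsf15 and Traf1 had none in this window. Of the 9 genes with a promoter in the table, 6 had at least 1 match, and so did 50.8% of all 32851 mouse promoters of this length, so a match is common. The AP-1 pattern TGANTCA, searched on both strands, was in 7.81% of all promoters and in none of these 9. TATAAA, also searched on both strands, was in 13.6% of all promoters and, among these 9, in that of Tnf.

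Levels are given as log2 of the processed signal minus log2 of the 75th percentile of the same array, so a level of 0 is the 75th percentile itself. That percentile lay between 346 and 527 signal units on the 4 arrays with HF and between 247 and 286 on the 4 without. Between 47.8% and 55.0% of probes per array were well above background. All 8 arrays lay on 1 slide, with the HF arrays in row 2 and the LPS arrays in columns 3 and 4, so position and treatment cannot be told apart. Control replicate 1 was uneven: its repeated probes varied by 48.9%, against 8.06% on HF replicate 1 and 3.77% to 4.59% on the other 6. Both it and HF replicate 1 carried the mark "evaluate" in the scanner software's quality checks. The software also reported the spot grid of control replicate 1 as not good, and that of every other array as good. What this did to the values was not tested. A correction for local brightness is given as the spatial correction beside the calls and counts it changes. It drops spots in regions dimmed more than 4-fold in background-subtracted signal (13.1% of spots on control replicate 1). Of 12 microglia and macrophage markers 10 were above background on all 8 arrays, with Cx3cr1 on 6 and P2ry12 on 5. Above background on all 8 arrays were 2 of 5 astrocyte markers, 1 of 4 neuronal, 3 of 4 oligodendrocyte and 1 of 4 T and B cell markers, while Slc1a2, Slc1a3, Syt1, Olig2, Cd3g and Ms4a1 were above it on none. Summed over a list, the log2 level ran from 9.48 to 9.69 on the LPS+HF and HF arrays and from 9.81 to 9.96 on the LPS and control arrays for microglial markers, and from 4.37 to 5.87 and from 5.17 to 6.02 for oligodendrocyte markers. For neuronal markers it ran from 2.70 to 2.94 with HF and from 3.18 to 3.51 without, for astrocyte markers from -1.85 to -1.39 and from -1.84 to -0.99, and for T and B cell markers from 2.47 to 2.77 and from 2.24 to 2.64. The part of such RNA in the results was not tested.

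With LPS alone, 4 of the 10 genes were higher than in control cells and none was lower, with an adjusted p under 0.05 from limma over all 22460 genes: Tnf, Tnfsf15, Traf1 and Traf2. Of all genes tested, 11.1% passed in this comparison and 4.8% were higher, which is 43.1% of those that passed (68.6% with median scaling). The median log2 difference was 1.51 over the 10 genes and -0.08 over all genes. With the spatial correction these medians were 1.19 and -0.04, and without control replicate 1 they were 1.23 and -0.06. Over the 65 other measured genes of the TNF system, described below, the median in the fit reported was 0.21. With HF alone, 1 of 10 passed, Tnfsf15, which was lower, while 0.882% of all genes passed and 0.739% were lower. In LPS+HF compared with LPS, 2 were higher (Tnf and Tnfsf9) and 2 were lower (Tnfsf15 and Traf1), while 6.25% of all genes passed, 2.99% higher and 3.26% lower. In LPS+HF compared with HF, 3 were higher (Tnf, Tnfsf15 and Traf1) and 1.28% of all genes passed, 0.904% higher. None of the 10 passed for the interaction, in which 12 of 22460 genes (0.0534%) passed, and 2595 had an unadjusted p under 0.05. The share of higher genes among those that passed also moved with the scaling in the other comparisons. It was 16.2% in HF against control (32.4% with median scaling), 47.9% in LPS+HF against LPS (30.1% with normexp background correction and quantile normalization) and 70.7% in LPS+HF against HF (91.8% with the same). The arrays of the compared groups did not overlap for 9 genes of 10 in LPS against control, 4 in HF against control, 7 in LPS+HF against LPS and 10 in LPS+HF against HF, against 57.1%, 46.1%, 73.9% and 53.3% of all genes. Without control replicate 1, the counts were 6, 1, 5, 6 and 0 in the same order, while 20.3%, 2.28%, 29.2%, 3.95% and 0.245% of all genes passed. With the spatial correction they were 7, 1, 5, 7 and 3, while 28.8%, 10.7%, 28.6%, 4.92% and 3.14% of all genes passed.

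**Figure D1:**
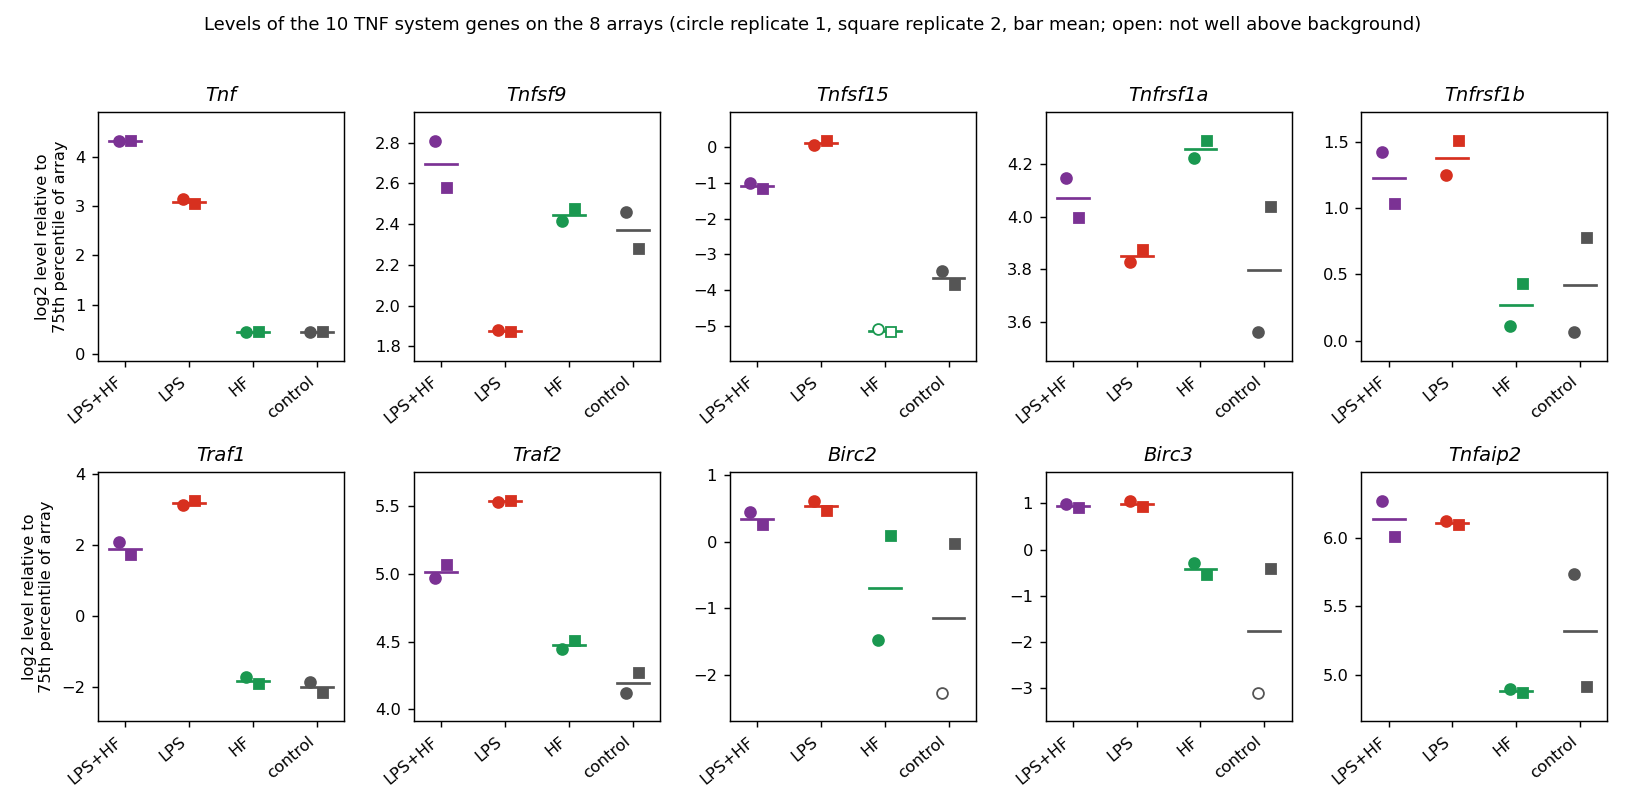
Log2 level relative to the 75th percentile of the array for each of the 10 genes (y axis, own scale per gene) in LPS+HF, LPS, HF and control cells (x axis); circles are replicate 1, squares replicate 2, bars the mean of 2 arrays, and open symbols were not well above background. Tnf is highest in LPS+HF cells (4.32 and 4.33), Traf1 and Tnfsf15 are highest in LPS cells, and control replicate 1 stands apart from control replicate 2 for Birc2 and Birc3.

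Among the ligands, Tnf itself, the founding cytokine of the family (chromosome 17, 35199367 to 35202007), was raised by LPS and was higher still with LPS+HF. On the 8 arrays its log2 level was 4.32 and 4.33 in LPS+HF cells, 3.15 and 3.05 in LPS cells, 0.44 and 0.45 in HF cells and 0.43 and 0.44 in control cells. The LPS+HF arrays were the highest and the LPS arrays next, and HF and control arrays overlapped. Tnf was 6.32-fold higher in LPS than in control cells (log2 2.66 ± 0.13 SE, n = 2 arrays each, limma adjusted p = 0.000515). It was 2.35-fold higher in LPS+HF than in LPS cells (log2 1.23 ± 0.13, limma adjusted p = 0.011) and 14.8-fold higher in LPS+HF than in HF cells (log2 3.88 ± 0.13, limma adjusted p = 0.000394). HF alone and control differed by 0.01 (95% interval -0.30 to 0.31). The values came from bulk RNA of the BV-2 line. Such values cannot tell the share of cells that express a gene from its RNA per cell.

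Before scaling, the Tnf signal was 10523 and 9170 in LPS+HF cells, 2499 and 2369 in LPS cells, 469 and 643 in HF cells and 333 and 356 in control cells. The HF arrays were thus brighter than the control arrays in signal units and level with them after scaling, and the difference between HF and control ran from -0.27 (normexp background correction with quantile normalization) to 0.39 (median scaling), with no alternative passing. The LPS+HF against LPS difference ran from 1.14 to 1.38 over 21 alternatives and its limma adjusted p from 0.00103 to 0.128. It did not pass with normexp and quantile normalization, with median scaling, with no filter on dim probes, or when any 1 of the 2 LPS or 2 LPS+HF arrays was left out, which gave 1.18 to 1.28. The Tnf probe is printed on 10 spots, whose SD on the log2 scale was 0.025 to 0.081 on 7 arrays and 0.37 on control replicate 1, where 8 spots were usable.

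**Figure D2:**
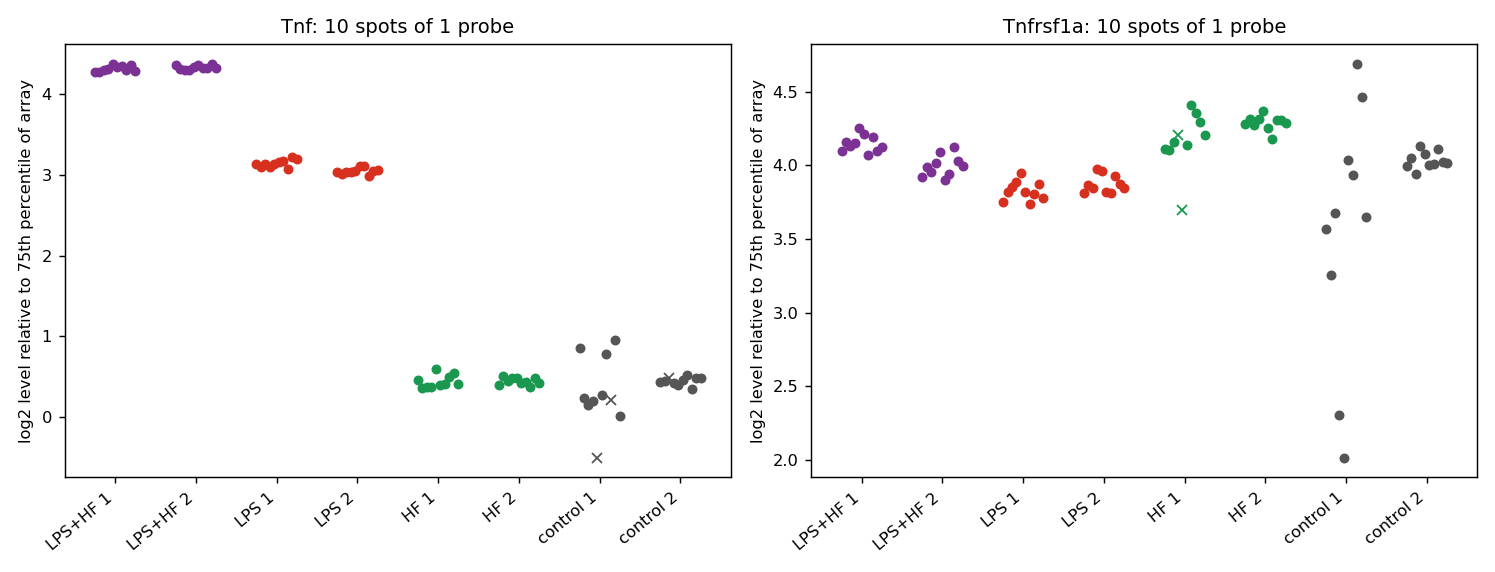
Log2 level of each of the 10 spots (y axis, relative to the 75th percentile of the array) of the Tnf probe (left) and of 1 Tnfrsf1a probe (right) on each array (x axis); crosses are spots the scanner software marked as outliers. The Tnf spots of LPS+HF, LPS, and the HF and control arrays form separate levels, while the Tnfrsf1a spots of control replicate 1 spread over signals of 995 to 6375.

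Tnfsf15 (chromosome 4, 63724600 to 63745059), which encodes the ligand of death receptor 3, rose with LPS and was lower in LPS+HF than in LPS cells. Its log2 level was -1.0 and -1.17 in LPS+HF cells, 0.07 and 0.19 in LPS cells, -5.09 and -5.19 in HF cells and -3.48 and -3.86 in control cells. The 4 groups did not overlap, and both HF arrays were not well above background. Tnfsf15 was 13.9-fold higher in LPS than in control cells in the fit reported (log2 3.79 ± 0.18 SE, limma adjusted p = 0.000515). It passed in 20 of 20 alternatives, over which this log2 difference ran from 2.35 to 4.21. The call thus held, while the size of the fold depended on the processing. Both control arrays had low levels, though well above background. LPS+HF cells had 2.31-fold less than LPS cells (log2 -1.21 ± 0.18, limma adjusted p = 0.0226), a call that was lost with normexp and quantile normalization, median scaling and no filter on dim probes and without any 1 of the LPS, HF or LPS+HF arrays (log2 -1.29 to -1.13, adjusted p up to 0.188). Against HF, Tnfsf15 was at least 9.28-fold higher in LPS+HF cells. The p belongs to the fitted difference (log2 4.06 ± 0.18, limma adjusted p = 0.00074) and not to this bound. Over 20 alternatives this log2 difference ran from 1.58 to 4.17, so the bound holds only for the fit reported.

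HF cells had at least 1.55-fold less Tnfsf15 than control cells. The SE and p belong to the fitted difference (log2 -1.47 ± 0.18, limma adjusted p = 0.0319) and not to this bound. Tnfsf15 was the only one of the 10 genes to pass in HF against control. Over all 20 alternatives its log2 difference ran from -1.66 to -0.14, so the 1.55-fold bound holds only for the fit reported. The call was weak: it was kept in 7 of 20 alternatives, with adjusted p from 0.000966 to 0.634, and was lost without any 1 of the LPS, HF or LPS+HF arrays (log2 -1.66 to -1.28 over the arrays left out). With the level of HF cells known only as an upper bound, the LPS response of Tnfsf15 with HF is a lower bound too, and its interaction (0.26 ± 0.25, limma adjusted p = 0.687) cannot be read as a measured difference.

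Tnfsf9 (chromosome 17, 57105287 to 57107758), the ligand of the T cell receptor 4-1BB, showed a smaller change. Tnfsf9 had log2 levels of 2.81 and 2.58 in LPS+HF cells, 1.88 and 1.87 in LPS cells, 2.42 and 2.47 in HF cells and 2.46 and 2.28 in control cells. The LPS arrays were the lowest, and HF and control arrays overlapped. Tnfsf9 was 1.76-fold higher in LPS+HF than in LPS cells (log2 0.82 ± 0.15 SE, limma adjusted p = 0.0366). The LPS against control difference was -0.49 ± 0.15 (limma adjusted p = 0.0923) and did not pass, nor did LPS+HF against HF (0.25 ± 0.15, limma adjusted p = 0.772). The call in LPS+HF against LPS was lost with the replicate number as a block, with 3 of the other alternatives, and without any 1 of the LPS, HF or LPS+HF arrays (log2 0.70 to 0.93, adjusted p up to 0.248).

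Neither TNF receptor passed in any comparison. Tnfrsf1a (chromosome 6, 125349723 to 125362483) had log2 levels of 4.15 and 4.0 in LPS+HF cells, 3.83 and 3.87 in LPS cells, 4.22 and 4.29 in HF cells and 3.56 and 4.04 in control cells. The control arrays spanned the LPS arrays, and the HF arrays were the highest. The difference was 0.05 ± 0.19 SE between LPS and control (95% interval -0.41 to 0.52), 0.22 ± 0.19 between LPS+HF and LPS (-0.24 to 0.69) and 0.46 ± 0.19 between HF and control (-0.01 to 0.92, limma adjusted p = 0.258). The 10 spots of the probe had an SD of 0.854 on control replicate 1, against 0.049 to 0.117 on the other arrays, and 2 of them were dropped by the spatial correction. A second Tnfrsf1a probe gave -0.34 for LPS against control and 0.01 for HF against control, and did not pass either.

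Tnfrsf1b (chromosome 4, 145212368 to 145246870) was higher on all 4 arrays with LPS than on the 4 without, without passing. The log2 level was 1.42 and 1.03 in LPS+HF cells, 1.25 and 1.51 in LPS cells, 0.11 and 0.43 in HF cells and 0.06 and 0.78 in control cells. LPS+HF and LPS arrays overlapped, and so did HF and control arrays. The difference was 0.96 ± 0.29 SE between LPS and control (limma adjusted p = 0.0914) and 0.96 ± 0.29 between LPS+HF and HF (limma adjusted p = 0.314). After the spatial correction, which raised control replicate 1 to 0.70, these were 0.64 (limma adjusted p = 0.0332) and 0.93 (limma adjusted p = 0.0322). Over all alternatives the adjusted p ran from 0.00822 to 0.924 and from 0.0322 to 1.00.

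Of the signalling proteins, Traf1 (chromosome 2, 34941750 to 34961812), an adaptor that is itself induced by NF-kappaB, had the largest LPS difference of the 10 genes. Its log2 level was 2.08 and 1.72 in LPS+HF cells, 3.14 and 3.24 in LPS cells, -1.74 and -1.94 in HF cells and -1.86 and -2.17 in control cells. HF and control arrays overlapped, and the LPS+HF arrays lay between them and the LPS arrays. Traf1 was 36.9-fold higher in LPS than in control cells (log2 5.21 ± 0.19 SE, limma adjusted p = 0.000371) and 13.3-fold higher in LPS+HF than in HF cells (log2 3.73 ± 0.19, limma adjusted p = 0.00119), and both passed in 21 of 21 alternatives. LPS+HF cells had 2.45-fold less than LPS cells (log2 -1.29 ± 0.19, limma adjusted p = 0.0237). That call was lost with median scaling, with no filter on dim probes and without any 1 of the LPS, HF or LPS+HF arrays (log2 -1.47 to -1.11, adjusted p up to 0.192).

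Traf2 (chromosome 2, 25517982 to 25546940), the adaptor through which both TNF receptors reach NF-kappaB, followed the same order of groups at a smaller size. Its log2 level was 4.97 and 5.07 in LPS+HF cells, 5.54 and 5.54 in LPS cells, 4.45 and 4.5 in HF cells and 4.12 and 4.27 in control cells. None of the 4 groups overlapped. Traf2 was 2.53-fold higher in LPS than in control cells (log2 1.34 ± 0.13 SE, limma adjusted p = 0.00486), a call lost without either LPS array (adjusted p up to 0.0683) and in a fit on only the arrays compared. The differences of -0.52 ± 0.13 between LPS+HF and LPS (limma adjusted p = 0.0784) and 0.54 ± 0.13 between LPS+HF and HF (limma adjusted p = 0.192) did not pass. With the spatial correction they were -0.49 (limma adjusted p = 0.0106) and 0.57 (limma adjusted p = 0.0198), and over all alternatives the adjusted p ran from 0.0106 to 0.67 and from 0.0198 to 1.00. A second Traf2 probe was far dimmer, with signals of 26.9 to 100 over the arrays against 4296 to 16487 for the first. It gave 0.21 ± 0.34 both for LPS against control and for LPS+HF against LPS, and did not pass in any comparison. Its value for LPS+HF against LPS thus had the opposite sign.

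Birc3 and Birc2, which encode the ubiquitin ligases cIAP2 and cIAP1, are neighbours on chromosome 9 (7847468 to 7873205 and 7818226 to 7837131, 10336 bases apart) and similar in sequence, and cross-hybridisation between them was not tested. Older annotations have at times exchanged their names, and here each name follows the RefSeq transcript listed for the probe. The Birc3 log2 level was 0.98 and 0.90 in LPS+HF cells, 1.05 and 0.93 in LPS cells, -0.29 and -0.55 in HF cells and -3.09 and -0.41 in control cells. All 4 arrays with LPS were above the 4 without, and control replicate 1, not well above background, lay far below the rest. Its spot there stood in a region at 0.0848 times the local brightness of the unmarked arrays. That ratio is of background-subtracted signal, not of the processed signal behind the levels. Birc3 was 2.75 ± 0.79 higher on the log2 scale in LPS than in control cells, which did not pass (limma adjusted p = 0.0797). The spatial correction dropped that spot and gave 1.33 for LPS against control (limma adjusted p = 0.0021) and 1.45 for LPS+HF against HF (limma adjusted p = 0.00253), with a single control array for this gene. Over 20 alternatives the 2 differences ran from 1.28 to 4.09 and from 1.23 to 1.49, and they passed in 5 and 6. The 4.09 came without control replicate 2, which leaves the dimmed spot as the only control. The HF against control difference was 1.33 ± 0.79 with the dimmed spot and -0.15 without it, and LPS+HF and LPS differed by -0.05 ± 0.79.

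The Birc2 log2 level was 0.44 and 0.24 in LPS+HF cells, 0.61 and 0.46 in LPS cells, -1.47 and 0.09 in HF cells and -2.27 and -0.03 in control cells. The 2 lowest values were those of the marked arrays. There the spot stood at 0.314 (HF replicate 1) and 0.0214 (control replicate 1) times the local brightness of the unmarked arrays. These ratios are again of background-subtracted signal. Birc2 did not pass in any comparison, with LPS against control at 1.68 ± 0.80 (limma adjusted p = 0.217). With the control spot dropped and HF replicate 1 corrected to -0.22, this difference was 0.61 and did not pass, with a single control array for this gene. Over all alternatives the difference ran from 0.56 to 2.80. It passed only without control replicate 2, which leaves the dimmed spot as the only control.

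Tnfaip2 (chromosome 12, 111442450 to 111455018), first found as a gene that TNF induces in endothelial cells, was bright on all arrays. Tnfaip2 had log2 levels of 6.27 and 6.0 in LPS+HF cells, 6.12 and 6.09 in LPS cells, 4.90 and 4.87 in HF cells and 5.73 and 4.91 in control cells. The 4 arrays with LPS were above the 4 without, and LPS+HF and LPS arrays overlapped. The difference was 0.78 ± 0.28 SE between LPS and control (limma adjusted p = 0.128) and 1.25 ± 0.28 between LPS+HF and HF (limma adjusted p = 0.147), and neither passed. A second probe of the gene gave 1.40 in both comparisons and passed in a fit over all probes (limma adjusted p = 0.012 and 0.0355). After the spatial correction, which lowered control replicate 1 to 5.23, the first probe gave 1.06 (limma adjusted p = 0.00387) and 1.33 (limma adjusted p = 0.00575), and over all alternatives the adjusted p ran from 0.00387 to 0.381 and from 0.00575 to 0.673.

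**Figure D3:**
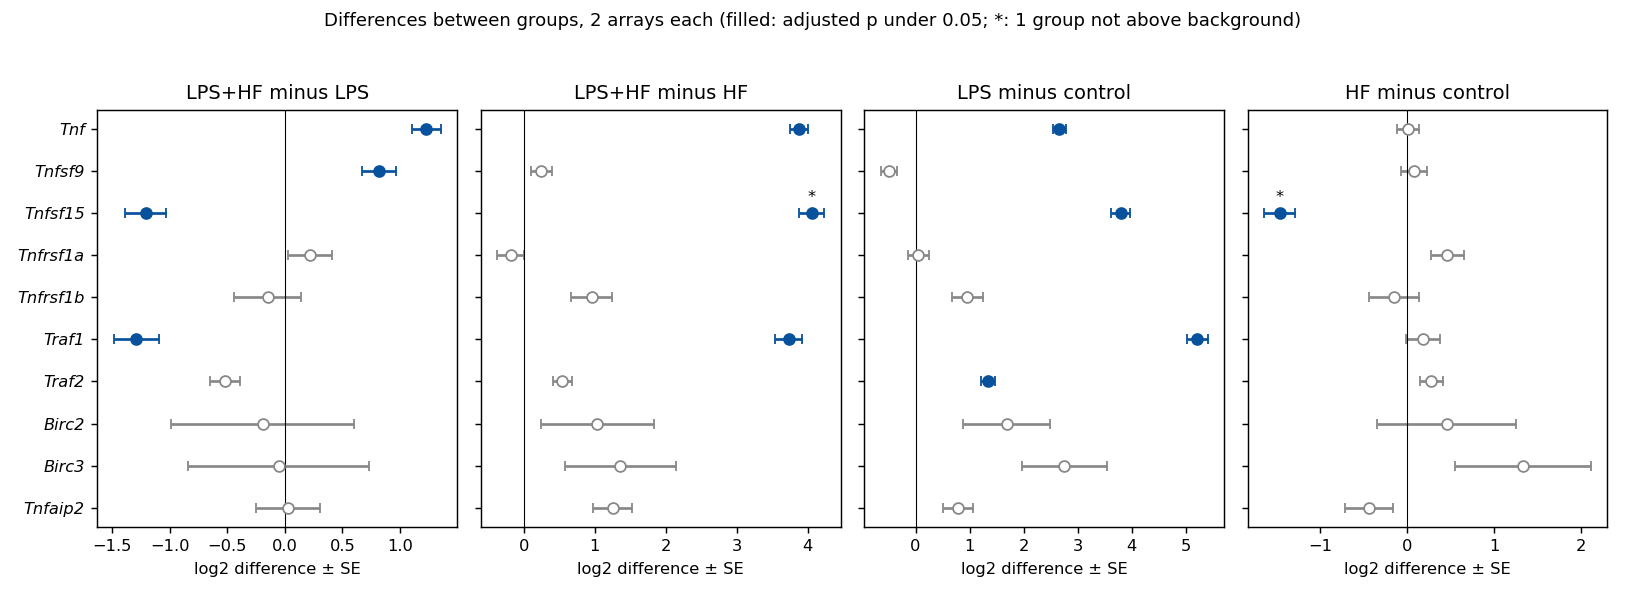
Log2 difference ± SE (x axis, own scale per panel) of each gene (rows) in 4 comparisons of 2 arrays against 2; filled points had an adjusted p under 0.05 and an asterisk marks a comparison in which 1 group was not above background. In LPS+HF minus LPS, Tnf and Tnfsf9 are filled to the right of 0 and Tnfsf15 and Traf1 to the left.

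The comparison of LPS+HF with LPS thus split the genes that LPS raised: Tnf was higher, and Tnfsf15 and Traf1 were lower. The 2 comparisons share the LPS arrays, so the opposite signs of Tnfsf15 and Traf1 in them are not independent. The LPS response can instead be set side by side on arrays that are not shared, LPS+HF against HF and LPS against control. It was 14.8-fold with HF and 6.32-fold without for Tnf, 13.3-fold and 36.9-fold for Traf1, and 1.46-fold and 2.53-fold for Traf2. The test of the difference is the interaction, which was 1.22 ± 0.18 for Tnf (95% interval 0.79 to 1.66, limma adjusted p = 0.126), -1.47 ± 0.28 for Traf1 (-2.14 to -0.80, limma adjusted p = 0.179) and -0.80 ± 0.19 for Traf2 (-1.26 to -0.34, limma adjusted p = 0.233). None passed over all genes. The second, far dimmer Traf2 probe had an interaction of 0.53 ± 0.48, of opposite sign. The mean over both probes gave -0.14, so the Traf2 value rests on the choice of probe.

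With the spatial correction these 3 interactions passed: Tnf at 1.17 (limma adjusted p = 0.0201), Traf1 at -1.58 (limma adjusted p = 0.0233) and Traf2 at -0.76 (limma adjusted p = 0.0372), against 3.14% of all genes. Their adjusted p over all alternatives ran from 0.0042 to 0.763, from 0.0156 to 0.645 and from 0.0101 to 0.831, and the other alternative in which they passed was the fit without control replicate 2, which leaves the uneven array as the only control. Tnfrsf1b had an LPS difference of 0.96 both with and without HF, with an interaction of 0.00 ± 0.41 (95% interval -1.0 to 1.0). With the spatial correction these were 0.93 with HF and 0.64 without, with an interaction of 0.29 ± 0.24 (limma adjusted p = 0.518), and over all alternatives the interaction ran from -0.36 to 0.71.

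**Figure D4:**
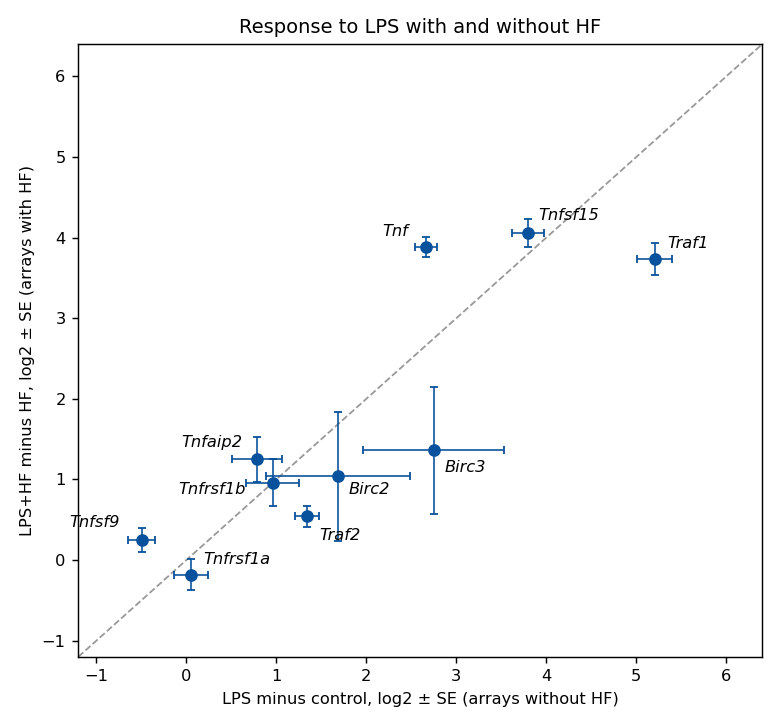
LPS+HF minus HF (y axis, log2 ± SE) against LPS minus control (x axis, log2 ± SE) for the 10 genes; the dashed line marks equal responses. Tnf (3.88 and 2.66) lies above the line and Traf1 (3.73 and 5.21) and Traf2 (0.54 and 1.34) below it; the difference did not pass over all genes for any of them.

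Other genes of the TNF system were taken from 4 lists of 80 genes, of which 65 were measured. Among 15 other ligands 6 were measured, and with LPS 1 was higher and 1 lower than in control cells, while 11.1% of all genes passed and 4.8% were higher. Lta, lymphotoxin alpha, had log2 levels of -2.61 and -2.55 in LPS cells against -3.64 and -4.32 in control cells, which were not well above background. The difference was at least 2.47-fold. The p belongs to the fitted difference (log2 1.40, limma adjusted p = 0.0274) and not to this bound. Over 20 alternatives this log2 difference ran from 0.57 to 1.83, so the bound holds only for the fit reported. Tnfsf8 (CD30 ligand) had -2.61 and -2.21 in LPS cells against -1.03 and -0.23 in control cells (log2 -1.78 ± 0.32 SE, limma adjusted p = 0.0244). Both calls were lost without any 1 of the LPS, HF or LPS+HF arrays (adjusted p up to 0.17 for Lta and 0.173 for Tnfsf8). Both were also lost with no filter on dim probes and on only the arrays compared. Lta also failed with normexp and quantile normalization, and Tnfsf8 with median scaling. The list's median difference was 0.00, and no other ligand passed in any comparison of the fit reported, which lacks the spatial correction. With it 5 of the 6 ligands passed in LPS against control (28.8% of all genes did): Lta and Ltb were higher and Tnfsf8, Tnfsf13b and Tnfsf14 lower, Tnfsf13b against a single control array. In LPS+HF against LPS 4 passed with it (28.6% of all genes), Tnfsf13b and Tnfsf14 higher and Lta and Tnfsf8 lower, and 2 passed in LPS+HF against HF (4.92%). Another 8 ligands, among them Fasl, Cd40lg and Tnfsf10 (TRAIL), were not above background on both arrays of any group.

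Of 26 other receptors 20 were measured, and with LPS 3 were higher and 1 lower than in control cells (median 0.35, against -0.08 over all genes), which is 4 of 20 while 11.1% of all genes passed. Fas, the death receptor of FasL, had log2 levels of 0.87 and 0.83 in LPS cells against -3.43 and -3.84 in control cells, 22.4-fold (log2 4.49 ± 0.18 SE, limma adjusted p = 0.000371). Its levels were 1.00 and 0.85 in LPS+HF cells against -3.12 and -2.99 in HF cells (15.8-fold, limma adjusted p = 0.00074), and the LPS+HF and LPS arrays overlapped. Both Fas calls held in 21 of 21 alternatives. The log2 difference ran over these from 2.85 to 4.91 without HF and from 2.68 to 4.09 with it. Fas signals were low without LPS, at 22.8 and 18.3 in control cells and 39.9 and 59.4 in HF cells.

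Cd40, a co-stimulatory receptor of macrophages and B cells, was higher with LPS both without HF (log2 1.44 ± 0.21, limma adjusted p = 0.013) and with it (1.91 ± 0.21, limma adjusted p = 0.0142). Tnfrsf10b, the mouse TRAIL receptor, was higher with LPS (1.03 ± 0.16, limma adjusted p = 0.0154). Tnfrsf18 (GITR) was lower by a narrow margin (-0.65 ± 0.15, limma adjusted p = 0.0499), and it passed in 5 of 21 alternatives, not with the spatial correction (-0.51, limma adjusted p = 0.0646) or the replicate block (limma adjusted p = 0.0847). The Cd40 and Tnfrsf10b calls in LPS against control held in 16 and 15 of 21 alternatives. Both were lost without either LPS array, with normexp and quantile normalization, with median scaling and on only the arrays compared. Tnfrsf10b also lost its call with no filter on dim probes. Over the alternatives the log2 difference ran from 0.87 to 1.78 for Cd40 and from 0.21 to 1.38 for Tnfrsf10b (limma adjusted p up to 0.144 and 0.649). The call of Cd40 with HF and that of Tnfrsf18 were lost without any 1 of the LPS, HF or LPS+HF arrays. That of Cd40 with HF was also lost with normexp and quantile normalization, with median scaling and with no filter on dim probes. No receptor passed in HF against control or in LPS+HF against LPS, while 0.882% and 6.25% of all genes did. With the spatial correction 6 receptors passed in LPS against control, with Tnfrsf21, Tnfrsf22 and Tnfrsf25 added (28.8% of all genes), and Cd40 and Cd27 passed in HF against control (10.7%). Tnfrsf21, Tnfrsf10b and Tnfrsf22 were then lower in LPS+HF than in LPS cells (28.6%), and these 3 also passed without control replicate 1 (29.2%).

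All 22 other adaptors and effectors were measured, and with LPS 2 were higher than in control cells and none lower (median -0.03), which is 2 of 22 while 11.1% of all genes passed. These were Rnf31, the HOIP subunit of the linear ubiquitin ligase (log2 0.89 ± 0.15 SE, limma adjusted p = 0.0184), and Traf4 (0.86 ± 0.16, limma adjusted p = 0.025). Fadd and Traf6 were higher in LPS+HF than in LPS cells, again 2 of 22, while 6.25% of all genes passed. Fadd, which links death receptors to caspase-8, had log2 levels of 0.64 and 0.87 in LPS+HF cells against -0.24 and -0.32 in LPS cells (1.03 ± 0.17, limma adjusted p = 0.0272). Traf6, the adaptor of Toll-like receptor and CD40 signalling, had -0.25 and -0.35 in LPS+HF cells against -1.19 and -1.07 in LPS cells (0.83 ± 0.16, limma adjusted p = 0.0407). Traf4, Fadd and Traf6 lost their calls without any 1 of the LPS, HF or LPS+HF arrays (adjusted p up to 0.178, 0.206 and 0.28), and Rnf31 without any 1 of the LPS or HF arrays (up to 0.152). All of these calls were also lost with normexp and quantile normalization, with median scaling and with no filter on dim probes. Fadd and Traf6 lost theirs with the replicate number as a block too, and Rnf31 and Traf4 on only the arrays compared. After the spatial correction 6 of 22 passed in LPS against control (28.8% of all genes), 1 in HF against control (Traf3, 10.7%), 5 in LPS+HF against LPS (28.6%) and 2 in LPS+HF against HF (4.92%).

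All 17 genes of the list of feedback inhibitors and TNF processing were measured, and 1 passed in LPS against control, while 11.1% of all genes did. Tnfaip3, the NF-kappaB inhibitor A20, was higher with LPS, at 3.0 and 3.06 in LPS cells against 0.24 and 0.86 in control cells (log2 2.48 ± 0.24 SE, limma adjusted p = 0.00429). It was likewise higher in LPS+HF cells, at 2.99 and 2.69 against 0.44 and 0.52 in HF cells (2.36 ± 0.24, limma adjusted p = 0.0104). Tnip3, an A20-binding protein, passed in LPS+HF against HF (2.04 ± 0.27, limma adjusted p = 0.029) and had 0.93 ± 0.27 in LPS against control (limma adjusted p = 0.0856), a difference between responses that did not pass (interaction 1.12 ± 0.39, limma adjusted p = 0.371). Tnip3 passed with the spatial correction in LPS against control (1.25, limma adjusted p = 0.000869), was lower in HF than in control cells (-0.90, limma adjusted p = 0.0101), and passed for the interaction (0.87, limma adjusted p = 0.0447). Tnfaip3 lost its first call without either LPS array (adjusted p up to 0.0562) and its second without any 1 of the HF or LPS+HF arrays (up to 0.109). Tnip3 lost its call without any 1 of the LPS, HF or LPS+HF arrays (up to 0.244). Tnfaip3 also lost its first call on only the arrays compared and its second with median scaling, and Tnip3 its call with no filter on dim probes. With the spatial correction 6 of the 17 passed in LPS against control (28.8% of all genes), 3 in LPS+HF against LPS (28.6%) and 4 in LPS+HF against HF (4.92%). Over the 4 lists, none of the 65 genes passed in HF against control, where 0.882% of all genes passed, or for the interaction (0.0534%). The spatial correction gave 6 calls in HF against control (Lta, Tnfsf8, Cd40, Cd27, Traf3 and Tnip3; 10.7% of all genes) and 1 for the interaction (Tnip3; 3.14%).

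**Figure D5:**
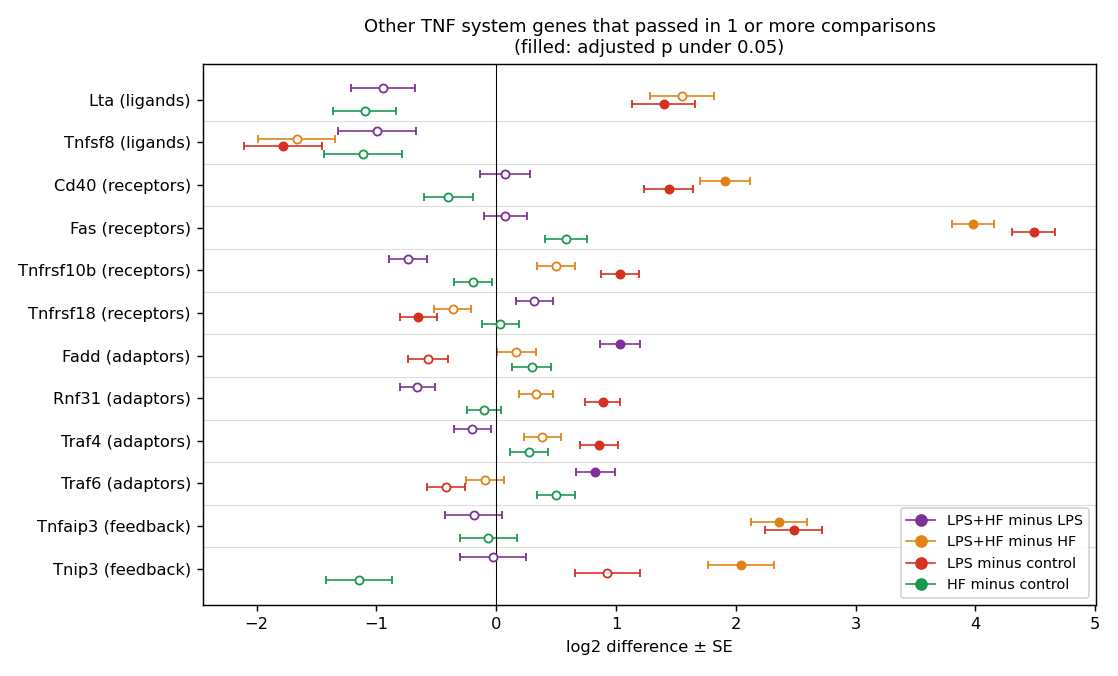
Log2 difference ± SE (x axis) in 4 comparisons (colours) of the 12 genes of the 4 lists that passed in at least 1 comparison; filled points had an adjusted p under 0.05. Fas shows the largest LPS differences (3.98 with HF and 4.49 without), and in LPS+HF minus LPS the filled points are those of Fadd and Traf6.

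Among 2649 named genes that were above background on all 8 arrays and whose group means spanned at least 1 on the log2 scale, those with array values most like each member were found by Pearson correlation over the 8 arrays. The 8 values share 4 groups, so high correlations are common, and they are given as a description. For Tnf the closest were Icosl (0.994), Acoxl (0.985) and Tlr2 (0.981), and 24 genes exceeded 0.95. Icosl, the ligand of the T cell co-stimulator ICOS, averaged 2.82 in LPS+HF cells, 2.07 in LPS cells, 0.58 in HF cells and 0.65 in control cells. For Traf1 they were Lcn2 (0.998), Marco (0.996) and Acod1 (0.995), with 93 genes over 0.95, and Lcn2 averaged 5.27 in LPS+HF cells, 6.65 in LPS cells, -0.77 in HF cells and -1.01 in control cells. Both genes were picked for this likeness, so their order of groups follows from the choice. For Traf2 they were Cpd (0.995), Tcirg1 (0.993) and Klc2 (0.991), for Tnfrsf1b Parp14 (0.971), Psme2b (0.966) and Ebi3 (0.964), and for Tnfaip2 Jsrp1 (0.983), Gas7 (0.976) and Ip6k3 (0.972). The other 5 members were not above background on every array or spanned less than 1, and were not searched.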

How the data were processed

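Messenger RNA was measured on 8 single-colour Agilent arrays (Cy3, probe coordinates of the design on mm9 per the file headers), 2 for each of 4 groups taken from the labels. Per the file headers, the intensity of each spot was made by Agilent Feature Extraction 11.5.1.1, with background subtraction and a correction of spatial trends, and no array was scaled to another. The log2 values of the deposited matrix were checked against a recomputation from those signals (99.97% of values within 0.1): each array has its 75th percentile subtracted, and each probe its median over arrays.

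Here the processed signals were put on the log2 scale, averaged over unflagged spots of a probe, and the 75th percentile of the array was taken off. A probe was kept if any group had it well above background on both of its arrays (30344 probes), and the kept probe with the highest mean stood for its gene (22460 genes, 13802 with a symbol). A fold against a group below background is a lower bound, taken against the array's lowest signal above background or the probe's own signal where higher. Group means were fitted with limma 3.58.1 in R 4.3.3 over all 8 arrays and 5 comparisons, with Benjamini-Hochberg adjustment over all genes, two-sided. The 10 genes are all named; from the 4 other lists up to 4 passing genes a comparison, the largest by size; and the 3 genes most correlated with a member. Members, lists and alternatives were chosen with earlier results of these data known.

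The alternatives were normexp background correction with quantile normalization (offset 50, on median signals, the mean signals not being used here), quantile normalization, median scaling, the authors' matrix, no filter, a filter on all arrays, the mean over probes, a trended and robust variance, the replicate number as a block, the spatial correction (windows of 31 rows and 15 columns of spots) alone and with the block, both marked arrays left out, only the arrays compared, and each array left out in turn, its partner then being assumed to vary like the other groups. The number of arrays limits the precision. Tables were handled in pandas 2.3.3 and numpy 2.4.6 under Python 3.11.15.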

Additional observations from a re-analysis of the deposited data

How the results depend on the processing

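Over 21 alternatives the 12 member differences that passed kept their sign in every alternative that could be computed; of 1025 member values 41 changed sign, all of differences that had not passed, 50 lost a call and 54 gained one. The 15 named results of the other lists kept their sign in 314 values, of which 107 lost the call. With median scaling the median difference of all genes was 0.27 in LPS minus control (-0.08 in the fit reported), 0.32 in HF minus control (-0.07), 0.08 in LPS+HF minus LPS (-0.07), 0.03 in LPS+HF minus HF (-0.08) and -0.21 in the interaction (0.02). In LPS minus control 4 members passed, 7 with the spatial correction, and 3 to 8 with 1 array left out. In HF minus control 1 passed, but 0 with normexp and quantile normalization, quantile normalization, median scaling, no filter, the filter on all arrays, the replicate block, both marked arrays left out or only the arrays compared, and 0 to 5 with 1 array left out. In LPS+HF minus LPS 4 passed, 1 with normexp and quantile normalization, 0 with median scaling or no filter, and 0 to 5 with 1 array left out. In LPS+HF minus HF 3 passed, 7 with the spatial correction, 6 with it and the replicate block, 5 without both marked arrays or on only the arrays compared, and 3 to 6 with 1 array left out. In the interaction 0 passed, 3 with the spatial correction, and 0 to 6 with 1 array left out. The highest counts for LPS minus control, HF minus control and the interaction came without control replicate 2, which leaves the uneven array as the only control, and there 52.7%, 45.3% and 35.3% of all genes passed. The cause was not tested. The filter on all arrays removed Tnfsf15 before the test, so the 0 in HF minus control under that filter is not a lost call of this gene.

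Same-numbered arrays correlated by -0.09 to 0.27 in their deviations from group means, so the numbers were not shown to pair arrays. With the replicate block 4 members passed in LPS minus control, 3 in LPS+HF minus LPS, 3 in LPS+HF minus HF and 0 in both HF minus control and the interaction, while 7.59%, 2.64%, 0.886%, 0.196% and 0% of all genes passed in this order, the calls of Tnfsf15 (HF minus control) and Tnfsf9 being lost.

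The number of all genes that passed moved by more than 1.5 times as follows. It was 2502 in LPS minus control, and from 67 on only the arrays compared to 11823 without control replicate 2. It was 198 in HF minus control, and from 0 on only the arrays compared (1717 at an unadjusted p under 0.05) to 10169 without control replicate 2. It was 1404 in LPS+HF minus LPS, and from 0 without LPS replicate 1 or 2 (2981 and 3115 unadjusted) to 7397 without both marked arrays. It was 287 in LPS+HF minus HF, and from 56 without LPS+HF replicate 1 to 1105 with the spatial correction. It was 12 in the interaction, and from 0 (replicate block, 2354 unadjusted) to 7934 without control replicate 2. A member call in limma therefore depends on the spread that the other arrays contribute as well as on its own.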
